A study of Homo sapiens with 38 samples.

Results

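The hypoxia-inducible factor (HIF) target genes described here were 10 genes chosen by name: CA9, ADM, ANKRD37, EGLN1, EGLN3, NDRG1, BNIP3, BNIP3L, P4HA1 and KDM3A. The annotation table used here lists no probe set for CA9, so that gene was not analysed here, and 9 of the 10 were measured. They have 18 probe sets (the groups of short probes that report a transcript) out of 54675 on the array. Of these 18, 13 passed a filter on low signals, which required a signal of at least 45.5 on at least 2 of 38 arrays, and every measured gene kept at least 1. The probe set with the highest mean stood for its gene, so the 9 members were tested among 11456 genes.

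Affymetrix U133 Plus 2.0 arrays recorded total RNA from established human tumour lines. HT-1080 is a fibrosarcoma line and HT-29 a colorectal adenocarcinoma line, and each was also used as a rho0 derivative, which lacks mitochondrial DNA (mtDNA). Untreated controls were 6 HT-1080, 2 HT-1080 rho0, 3 HT-29 and 1 HT-29 rho0 arrays. There were 26 treated arrays, each with a stress: the glucose analogue 2-deoxyglucose (2DG), glucose starvation (GS) or the N-glycosylation inhibitor tunicamycin (TM). In HT-1080, 2DG alone is represented by 3 arrays, GS alone by 2 and TM alone by 1. GS alone has 3 arrays in HT-29, and each remaining treatment a single one. Rotenone (Rot, 100 nM), a complex I inhibitor, and antimycin A (AA, 10 ng/ml), a complex III inhibitor, were added in HT-1080 to each of the 3 stresses. The weaker complex I inhibitors of the biguanide class were combined with 2DG and with no other stress: 10 mM metformin (Met), phenformin (Phen) at 100 µM, and buformin (Bu) at 300 µM. Versipelostatin (VST, 3 µM), a macrocyclic compound described as blocking the stress response of glucose-deprived cells, was added to 2DG and to GS in HT-1080 and to GS in HT-29. HT-1080 rho0 cells were given each stress, and HT-29 rho0 cells were given GS. Exposure lasted 18 h, except that the starved HT-29 rho0 cells and the third HT-29 GS culture had 14 h. The suffix S marks samples that hold floating cells as well. A compound was never given without a stress. The doses of 2DG and TM and the oxygen level of the cultures are not given in the sources used here.

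HIF is a transcription factor made of an oxygen-regulated alpha subunit and the stable partner ARNT. In oxygenated cells prolyl hydroxylases of the EGLN family mark the alpha subunit, VHL binds it and it is degraded. When oxygen is short the subunit persists and the complex binds short DNA elements near genes of oxygen sensing, glucose use, mitochondrial turnover, matrix building and vessel growth. The mitochondrial respiratory chain is the main consumer of oxygen in most cells. EGLN1 and EGLN3 are themselves targets, which closes a feedback loop.

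The core of the HIF element is RCGTG, where the first base is A (written ACGTG) or G (written GCGTG). Each was searched on both strands of the 250 bases before each start in the RefSeq promoter table (GRCh38.p14). A promoter was on file for 8 of the 10 genes, all but NDRG1 and BNIP3L. ACGTG lay in 18.5% of 35116 promoters of this length, GCGTG in 32.2% and either in 43.2%. The promoters shown belong to EGLN1 and P4HA1, the pair of genes on which the inhibitor comparison turns. The others belong to ANKRD37, which changed with mtDNA loss in HT-1080, and to BNIP3, the member with the most matches. They are written in the direction of the gene, and capitals mark a match to either core on either strand.

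EGLN1 (chr1:231422288-231422537, minus strand): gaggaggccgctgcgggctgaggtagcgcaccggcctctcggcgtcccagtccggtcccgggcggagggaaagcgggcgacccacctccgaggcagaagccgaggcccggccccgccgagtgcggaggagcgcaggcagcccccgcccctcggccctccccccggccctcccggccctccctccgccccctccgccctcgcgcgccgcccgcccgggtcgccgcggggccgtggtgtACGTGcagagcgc
P4HA1 (chr10:73096867-73097116, minus strand): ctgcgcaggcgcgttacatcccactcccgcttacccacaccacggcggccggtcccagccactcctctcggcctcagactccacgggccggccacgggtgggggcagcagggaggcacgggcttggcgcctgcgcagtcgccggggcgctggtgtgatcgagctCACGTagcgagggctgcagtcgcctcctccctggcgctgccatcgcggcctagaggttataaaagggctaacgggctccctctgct
ANKRD37 (chr4:185396591-185396840, plus strand): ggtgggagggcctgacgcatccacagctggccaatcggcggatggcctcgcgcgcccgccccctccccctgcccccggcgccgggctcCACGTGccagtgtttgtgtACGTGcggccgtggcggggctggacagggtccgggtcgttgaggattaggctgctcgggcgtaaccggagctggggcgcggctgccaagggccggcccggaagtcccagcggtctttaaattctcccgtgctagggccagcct
BNIP3 (chr10:131981924-131982173, minus strand): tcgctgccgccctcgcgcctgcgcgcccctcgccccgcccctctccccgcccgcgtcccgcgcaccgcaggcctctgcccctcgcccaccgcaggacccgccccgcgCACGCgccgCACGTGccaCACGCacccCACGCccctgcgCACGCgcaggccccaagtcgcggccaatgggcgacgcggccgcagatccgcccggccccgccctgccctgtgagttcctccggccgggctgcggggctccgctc

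EGLN1 held 1 ACGTG, 13 bases before its start, and P4HA1 held 1, 86 bases before. ANKRD37 held 3, at 162, 161 and 143 bases, the first 2 of them the overlapping strands of 1 palindrome. BNIP3 held 2 ACGTG, at 134 and 133 bases, likewise the overlapping strands of 1 palindrome, and 4 GCGTG, at 143, 125, 116 and 104 bases. CA9 had 1 ACGTG at 18 bases, ADM 1 GCGTG at 101 bases, and KDM3A 1 GCGTG at 26 bases from its first listed transcript start and 116 from the other. Both KDM3A windows precede transcript starts that lie inside the gene's annotated RefSeq span, not at its first base. EGLN3 had neither in this window. A match is a description of letters, not evidence of a bound site.

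Signals are MAS5 intensities scaled here to a common trimmed mean, and changes are log2 differences of the signal plus a small offset. Before that scaling the trimmed mean of parental controls was 124 to 136, and that of arrays with 2DG or GS alone 122 to 131. A compound beside 2DG or GS went with 89.5 to 102 (11 arrays), and rho0 cells under 2DG or GS had 90.2 to 96.3 (3 arrays). The 3' to 5' signal ratio was 0.913 to 1.07 for GAPDH and 1.04 to 1.76 for ACTB. The 7 of 10 epithelial markers that were tested were all higher in HT-29 and all 10 mesenchymal markers were higher in HT-1080. The summed epithelial signal was 14300 to 20100 on HT-29 arrays against 11.4 to 86.3 on HT-1080 arrays, and the summed mesenchymal signal 209 to 782 against 14800 to 22400. The mtDNA-encoded transcript COX1 was 4030 to 14800 on the 24 parental HT-1080 arrays and 0.285 to 1.52 on the 5 rho0 arrays. In bulk RNA a lower share of cells that express a gene and less RNA per cell cannot be told apart. The number of arrays limits every value, and each p-value reflects only how these arrays vary, which may be technical, since no label names separate cultures.

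The 2 parental lines differed in which members they expressed. ADM, EGLN3 and BNIP3 stayed below 45.5 on every array of one line, passed the filter only through the other and are given as signals with no test. Of the other 6 members, P4HA1 was higher in HT-29 and ANKRD37, EGLN1, NDRG1, BNIP3L and KDM3A were lower, and all 6 passed the threshold where 59.8% of all tested genes did, 27.4% higher and 32.4% lower (limma, Benjamini-Hochberg adjusted p under 0.05, used throughout). ADM, which encodes the secreted vasodilator adrenomedullin, was 111, 126 and 139 on the HT-29 controls and 0.705 to 26.4 on the 6 HT-1080 controls. ADM never reached 45.5 on any of the 29 HT-1080 arrays. BNIP3, an outer membrane receptor that directs mitochondria to autophagy, was 1720 to 2620 on the HT-1080 controls and 0.453 to 6.05 on the HT-29 controls. Its highest signal on any of the 9 HT-29 arrays was 10.1, and its other probe set likewise stayed at 4.67 or lower there. BNIP3L, the related mitophagy receptor NIX, was present in both lines and was 5.31-fold lower in HT-29 (149, 155 and 235 against 727 to 1170). The BNIP3L signals of the 2 lines did not overlap, but the share of all tested genes without overlap was not counted.

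Changes of ADM in HT-1080, of EGLN3 in HT-1080 and of BNIP3 in HT-29 therefore lie among signals near background and are given for completeness. EGLN3, the hydroxylase PHD3, was 1.04 to 11.7 on HT-1080 arrays and passed 45.5 on only 2 of 9 HT-29 arrays, at 50.3 or less. NDRG1, a stress-induced gene named for its repression by N-myc, was 638 to 2780 on the HT-1080 controls and 87.4, 348 and 410 on the HT-29 controls (log2 difference -2.49, SE 0.45, adjusted p = 0.000245). It was also the most variable member among the HT-1080 controls that were clearly expressed, with control 3 highest. ANKRD37, an ankyrin-repeat protein, was 231 to 363 in HT-1080 and 46.4 to 64.6 in HT-29 (log2 difference -2.26, SE 0.20, adjusted p = 1.9e-07). EGLN1, the main oxygen-sensing hydroxylase PHD2, was 516 to 860 and 358 to 445, and KDM3A, a histone demethylase, was 278 to 382 and 178 to 225. P4HA1, the catalytic subunit of collagen prolyl 4-hydroxylase, was 350 to 495 and 419 to 789 and overlapped (log2 difference 0.49, SE 0.18, adjusted p = 0.0256, and 0.0502 to 0.183 without HT-1080 control 1 or 5 or HT-29 control 1 or 3).

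**Figure D1:**
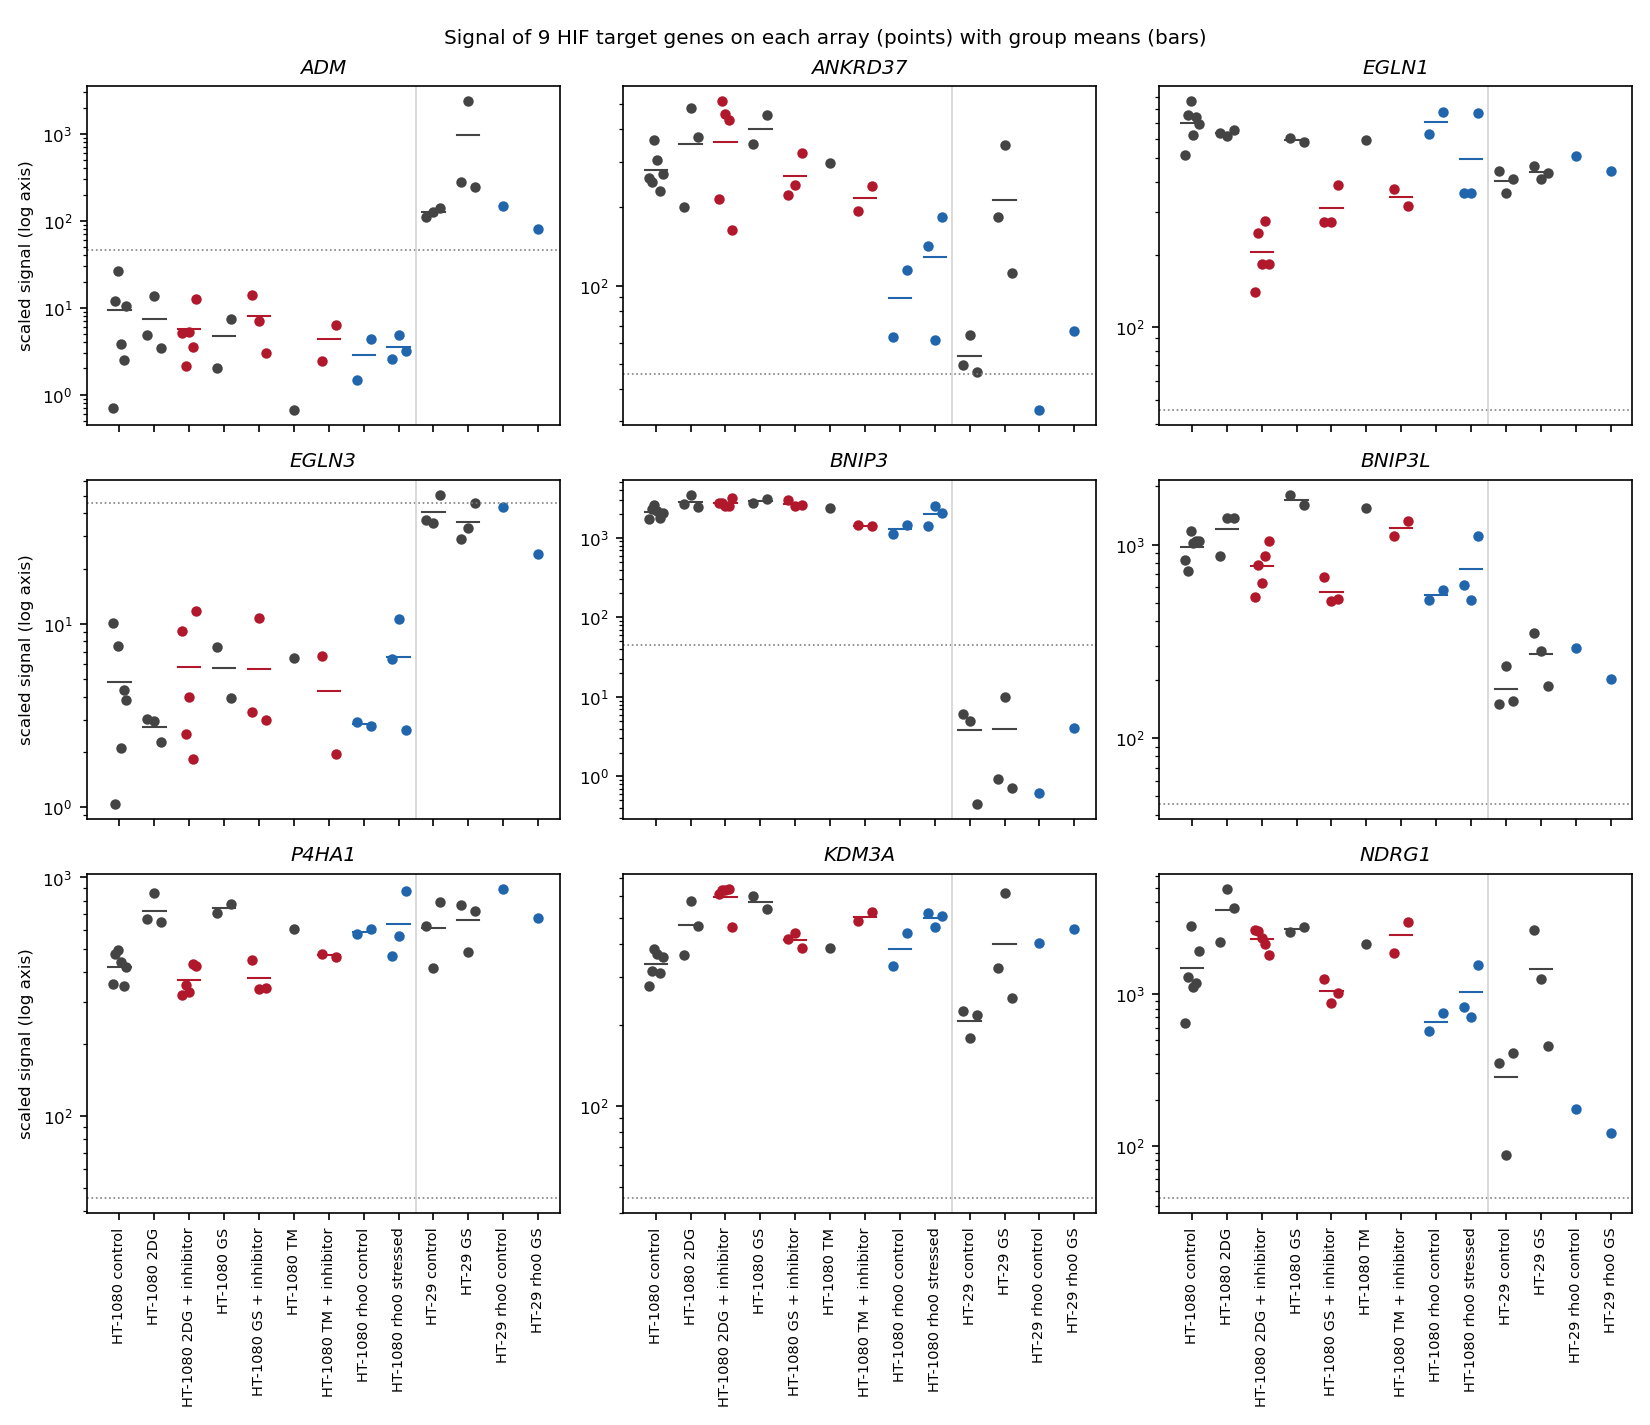
Scaled signal (log axis) of the 9 measured members on each array, by group. Points are arrays, bars are group means where a group has several arrays, red marks stress with a respiratory inhibitor, blue marks rho0 cells, the dotted line is 45.5, arrays with VST are left out, and the GS inhibitor column holds GS+Rot, GS+Rot_S and GS+AA_S. EGLN1 with 2DG and an inhibitor sits at 140 to 275, below every control of either line.

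Loss of mtDNA in unstressed HT-1080 cells went with lower signals of ANKRD37 and BNIP3L. ANKRD37 was 63.4 and 115 on the 2 rho0 controls against 231 to 363 on the 6 parental ones, a log2 difference of -1.63 (SE 0.23, adjusted p = 0.000712). BNIP3L was 515 and 580 against 727 to 1170 (log2 difference -0.80, SE 0.20, adjusted p = 0.0163), and its other probe set gave -0.85. Neither gene's groups overlapped, but how many of all tested genes did not overlap either was not counted. These 2 of 9 members fell and 0 rose, where 6.95% and 6.15% of tested genes did (13.1% in all). The BNIP3L call was lost without either rho0 array (adjusted p = 0.164 without replicate 1 and 0.097 without replicate 2).

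BNIP3 was 1120 and 1440 on the rho0 controls against 1720 to 2620, also without overlap, but missed the threshold (log2 difference -0.71, SE 0.23, adjusted p = 0.0555). It passed with 5 of the alternative settings, the offset of 20% among them (adjusted p = 0.0127). NDRG1 was 565 and 743 (log2 difference -1.04, adjusted p = 0.215). EGLN1, at 631 and 777, lay within the range of the parental controls, with a difference of 0.02 (95% interval -0.35 to 0.39). P4HA1 was 579 and 607 against 350 to 495, higher on both arrays without passing (log2 difference 0.49, adjusted p = 0.127).

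The single HT-29 rho0 control showed another pattern. KDM3A was 401 there against 178, 218 and 225 on the parental controls (log2 difference 0.94, SE 0.23, adjusted p = 0.0263, and 0.0682 with the deposited scaling). It was the only member of 9 called, where 7.97% of tested genes were (3.99% higher). BNIP3L was 292 against 149, 155 and 235, the opposite direction to HT-1080, and the difference between the lines passed (log2 1.52, SE 0.34, adjusted p = 0.0218). That difference was the only 1 of 9 called, where 5.61% of tested genes were (3.09% higher), and it was lost without either HT-1080 rho0 control (adjusted p = 0.0772 and 0.0602). Averaged over both lines, ANKRD37 fell by 1.11 and KDM3A rose by 0.56 (adjusted p = 0.00304 and 0.0191), where 14.7% of genes were called (7.61% higher and 7.06% lower). Each average was called in 1 line only. ANKRD37 was at -0.59 in HT-29, with the rho0 array at 33.2, below 45.5. KDM3A was at 0.18 in HT-1080, where the rho0 controls at 329 and 438 overlapped the parental range of 278 to 382. The KDM3A call was lost with the deposited scaling (adjusted p = 0.0953) and without HT-1080 rho0 replicate 2 (0.0846). BNIP3 fell by 0.62 at an adjusted p of 0.0496 that 5 alternative settings lost, and its HT-29 signals are at background. Its other probe set was at -0.14. With the deposited scaling the share of higher among called genes went from 46.9% to 18% in HT-1080 and from 50.1% to 20.9% in HT-29.

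Other genes of the pathway were followed in 4 lists with 72 names, of which 63 were measured. In HT-1080 rho0 controls 3 of these 63 rose and 9 fell, where 6.15% and 6.95% of all tested genes did. EPAS1, which encodes HIF-2 alpha, rose by 0.70 and HIF1A fell by 0.44 (adjusted p = 0.0216 and 0.0363). CA12, another membrane carbonic anhydrase, fell by 2.19, the hexokinase HK2 fell by 0.90 and HMOX1, which degrades haem, rose by 1.80. In the HT-29 rho0 control 4 rose and 2 fell, where 3.99% and 3.98% of all genes did, with DDIT4, an inhibitor of mTORC1, up by 3.61 and the angiogenic factor VEGFA up by 1.35.

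The 2DG comparison asks how HT-1080 cells respond to a block of glucose use, with each of 3 arrays set against its own control. P4HA1 rose by 0.77 (SE 0.15, adjusted p = 0.00983), from 477, 440 and 350 in the controls to 669, 859 and 652. It was the only 1 of 9 members called, where 8.27% of tested genes were (4.9% rose and 3.37% fell). NDRG1 had the largest difference and was higher on 3 of 3 arrays, at 2210, 4910 and 3650 against 1300, 1110 and 1170, but its spread kept it from passing (log2 change 1.51, SE 0.53, adjusted p = 0.0994). BNIP3, BNIP3L and KDM3A were each above the own control on 3 of 3 arrays, by 0.22 to 0.67, 0.26 to 0.43 and 0.19 to 0.65 on the log2 scale, with adjusted p of 0.222, 0.223 and 0.25. The other BNIP3L probe set gave a larger change that passed over all probe sets (0.84, adjusted p = 0.0209), so the pair disagree on the call. EGLN1 was 639, 618 and 656, within the range of the controls (log2 change -0.15, 95% interval -0.43 to 0.14).

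The median change of the 9 members was 0.36 with 2DG, beside 0.02 for all tested genes. It counts ADM and EGLN3, which were near background in HT-1080. With HT-1080 arrays alone in the fit, the members called were 5, as NDRG1, BNIP3, BNIP3L and KDM3A passed too (adjusted p = 0.00236 for NDRG1). How many of all tested genes passed in that fit was not counted. The call of P4HA1 was lost without 2DG replicate 2 or 3 or their controls 4 or 5 (adjusted p = 0.136 and 0.0901 without the 2 treated arrays).

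Glucose starvation of HT-1080 raised P4HA1 and BNIP3L. P4HA1 was 776 and 712 against own controls of 356 and 420 (log2 change 0.93, SE 0.18, adjusted p = 0.0111). BNIP3L was 1600 and 1800 against 827 and 1040 (log2 change 0.87, SE 0.21, adjusted p = 0.028), and its other probe set gave 0.86. All 4 starved values lay above all 6 HT-1080 controls of the same gene, but the share of all tested genes that did so was not counted. These 2 of 9 members rose and 0 fell, where 4.36% and 5.1% of tested genes did (9.45% in all). KDM3A was higher on 2 of 2 arrays without passing (539 and 600 against 278 and 358, adjusted p = 0.0971), and so was BNIP3 (3060 and 2780 against 1720 and 2040, adjusted p = 0.152). The second BNIP3 probe set did pass over all probe sets (log2 change 0.94, adjusted p = 0.0328). NDRG1 was 2760 and 2570 against controls of 638 and 1910, so its change was 2.10 on one array and 0.42 on the other.

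EGLN1 was 583 and 609 with starvation against 516 and 694 in the own controls (log2 change -0.01, 95% interval -0.35 to 0.34). The members' median was 0.64, beside -0.02 for all genes, with ADM and EGLN3, near background here, again counted. Without either starved array or either control both calls were lost (adjusted p = 0.216 to 0.304 for BNIP3L and 0.0923 to 0.232 for P4HA1). With HT-1080 arrays alone 5 members were called, but the share of all tested genes called in that fit was not counted.

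On the single TM array limma called 0 of the 9 members (1 had an unadjusted p under 0.05), and 0% of tested genes were called (686 of 11456 at an unadjusted p under 0.05). BNIP3L was 1540 against 1040 in its control and P4HA1 609 against 420, the largest positive differences on this array (log2 change from the own control 0.56 and 0.53). The median of the members' fitted changes, with ADM and EGLN3 near background counted, was 0.25, beside 0 for all genes. Measured from the own control on this array, their median was 0.16.

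In HT-29 cells, GS raised 5 of 9 members and lowered 0, where 11.6% of tested genes rose and 15.4% fell (27.1% in all). ANKRD37 rose on every array, to 184, 346 and 112 from 49.6, 64.6 and 46.4 (log2 change 1.76, SE 0.24, adjusted p = 0.00104). NDRG1 went to 2640, 1260 and 454 from 348, 87.4 and 410 (log2 change 2.27, SE 0.53, adjusted p = 0.0103). ADM went to 282, 2360 and 242 from 111, 126 and 139 (log2 change 2.09, SE 0.61, adjusted p = 0.0273). KDM3A went to 324, 618 and 252 from 225, 178 and 218 (log2 change 0.83, SE 0.24, adjusted p = 0.0257). BNIP3L went to 349, 281 and 185 from 149, 235 and 155 (log2 change 0.56, SE 0.17, adjusted p = 0.0326).

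The 3 HT-29 arrays did not respond alike. Replicate 2 carried the highest ADM, ANKRD37 and KDM3A. Replicate 3, the 14 h exposure, had the smallest change of NDRG1 (0.14), ANKRD37 (1.18), ADM (0.78) and KDM3A (0.20). It also had the smallest change of BNIP3L, at 0.24 beside 0.25 on replicate 2. The estimates over the 3 arrays therefore mix exposure times. Without replicate 2 the change of ADM was 1.04 (adjusted p = 0.232), that of NDRG1 1.52 (0.0897) and that of KDM3A 0.36 (0.172). Without replicate 1 those 3 genes missed the threshold as well (adjusted p = 0.0646, 0.0854 and 0.0581), and BNIP3L was at 0.25 (0.246). With no intensity trend ADM, BNIP3L and KDM3A missed the threshold (adjusted p = 0.0555, 0.0713 and 0.061), and BNIP3L and KDM3A also with HT-29 arrays alone (0.184 and 0.102). Without the own control as a replicate block BNIP3L missed it too (0.118). ANKRD37 passed without any of the 3 arrays or their controls. P4HA1, which rose in starved HT-1080 cells, was 770, 489 and 726 against 628, 419 and 789 (log2 change 0.13, 95% interval -0.19 to 0.45), and EGLN1 was 466, 411 and 436 against 445, 358 and 410.

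Whether starvation changed the members differently in the 2 lines was tested directly. limma called 0 of 9, with 2 at an unadjusted p under 0.05, where 0.567% of tested genes were called. P4HA1 differed by -0.80 (HT-29 minus HT-1080, 95% interval -1.30 to -0.30, adjusted p = 0.168) and ANKRD37 by 1.18 (0.34 to 2.02, adjusted p = 0.215). Without the 14 h HT-29 array ANKRD37 and NDRG1 passed, at 1.47 and 2.07 (adjusted p = 0.0352 and 0.0371).

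Among the other pathway genes, 6 of 63 rose and 1 fell with 2DG, 7 rose and 1 fell with GS in HT-1080, and 11 rose and 10 fell with GS in HT-29. Over all tested genes the shares that rose and fell were 4.9% and 3.37%, 4.36% and 5.1%, and 11.6% and 15.4%. The matrix cross-linking enzyme LOX rose by 1.85 with 2DG and by 1.61 with GS in HT-1080, and ERO1A, an ER oxidase, by 0.87 and 0.92. P4HA2, the paralogue of P4HA1, rose by 0.96 with 2DG. PDK1, which shuts pyruvate out of mitochondria, rose by 1.18 with GS in HT-1080. In HT-29 GS raised DDIT4 by 3.90 and VEGFA by 2.45, and the chemokine receptor CXCR4 fell by 3.05. HMOX1 rose by 5.33 in starved HT-1080 and by 3.33 in starved HT-29 cells. Of the 11 measured genes of the HIF machinery itself, 0 were called with 2DG or GS in HT-1080, and 1 rose and 1 fell with GS in HT-29, HIF1A (0.28) and CUL2, a scaffold of the VHL ligase (-0.49). As a check on the stress labels, HSPA5, the main ER chaperone, rose by 1.31 with 2DG, by 1.40 with GS and by 1.14 with GS in HT-29. On the single TM array its fitted change was 1.41, which was not called.

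**Figure D2:**
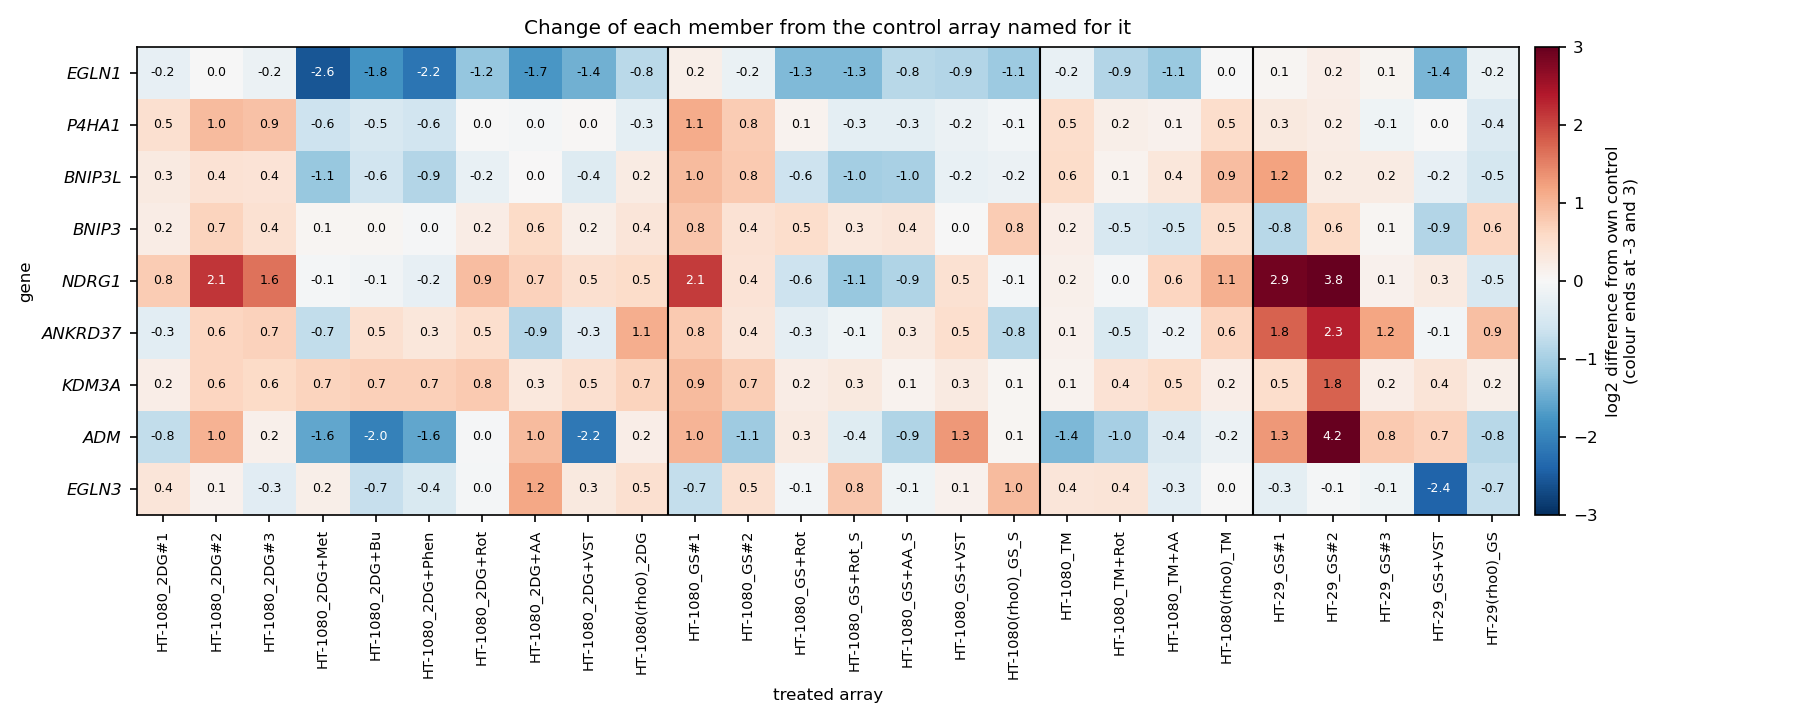
Log2 difference of each member (rows) from the control array named for each of the 26 treated arrays (columns), printed in each cell and coloured from blue (lower) to red (higher). Vertical lines separate 2DG, GS and TM in HT-1080 from GS in HT-29, and the EGLN1 row is below 0 by 0.83 to 2.57 on all 10 HT-1080 arrays with a respiratory inhibitor, of which GS+Rot and GS+Rot_S may share a culture.

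The central comparison sets stress with a respiratory inhibitor against the same stress alone. In these fits the single arrays of different compounds, at different doses, stand as replicates of inhibition. The p-values therefore do not measure replication of any single compound. With 2DG, EGLN1, P4HA1 and BNIP3L were lower with the 5 inhibitors. EGLN1 was 140 with Met, 245 with Bu, 183 with Phen, 275 with Rot and 183 with AA, against 618 to 656 with 2DG alone and 516 to 860 in the 6 controls. The 5 values lay below every array of both groups (log2 change -1.60, SE 0.24, adjusted p = 7.36e-05), a 3.02-fold fall. How many of all tested genes were separated in this way was not counted. All 3 EGLN1 probe sets that passed the filter fell, by 1.60, 1.10 and 1.08.

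P4HA1 was 320, 354 and 330 with Met, Bu and Phen, 435 with Rot and 425 with AA, against 652 to 859 with 2DG alone (log2 change -1.04, SE 0.16, adjusted p = 9.17e-05). That left it 0.02 to 0.62 below its own controls on the log2 scale, where 2DG alone had put it 0.48 to 0.95 above. BNIP3L was 533, 784 and 630 with Met, Bu and Phen, 877 with Rot and 1040 with AA, against 868, 1370 and 1370 (log2 change -0.74, SE 0.22, adjusted p = 0.0138), and its other probe set gave -0.65. On the scale of signals these groups overlap, and each array was judged from its own control. The BNIP3L call was lost with Rot and AA only (log2 change -0.49, adjusted p = 0.122), without 2DG replicate 2 (-0.83, adjusted p = 0.0754) and without control 3, which the biguanides share (-0.49).

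These 3 of 9 members fell and 0 rose, where 22.1% and 12.9% of tested genes did (35% in all). The members' median was -0.72, beside -0.12 for all genes. That median is the value of ADM, which was near background in HT-1080, so it does not describe the expressed members. EGLN3, also near background there, was counted too. NDRG1 was 1790 to 2650, against 2210 to 4910 with 2DG alone, and missed the threshold (log2 change -1.23, SE 0.51, adjusted p = 0.0661). It passed with quantile normalization (adjusted p = 0.0316) and with the deposited scaling (0.0144). KDM3A was 460 to 639 with the inhibitors and 362 to 578 with 2DG alone (log2 change 0.07, 95% interval -0.43 to 0.58). BNIP3 was 2510 to 3210 against 2460 to 3440 (log2 change -0.25, 95% interval -0.70 to 0.20), and it passed with the same pair of scalings, at -0.63 (adjusted p = 0.0294 and 0.0237). ANKRD37 ranged from 163 with AA to 511 with Bu and did not differ beyond its spread (log2 change -0.56, adjusted p = 0.281).

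The arrays with inhibitors also had a lower trimmed mean before scaling (89.5 to 102 for 2DG or GS with a compound), and its part in these results was not tested. Leaving the deposited scaling in place moved the median of all genes from -0.12 to -0.48 with 2DG and from -0.04 to -0.40 with GS. The share of higher among called genes went from 36.8% to 7.42%, from 45.3% to 15.4% and, with TM, from 25.9% to 13.2%. Over the alternative settings other than left-out arrays, the change under 2DG was -2.04 to -1.26 for EGLN1 and -1.43 to -0.90 for P4HA1. Under GS it was -1.37 to -0.87 for EGLN1 and -1.52 to -0.935 for P4HA1. Both genes passed in each of these settings. Under 2DG both also passed when each of the 12 arrays was left out in turn, with adjusted p no higher than 0.00474 and 0.00833.

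With GS, inhibitors lowered 4 of 9 members and raised 0, where 14.6% and 12.1% of tested genes fell and rose (26.6% in all). BNIP3L was 511 with Rot and 524 with AA, in samples that included floating cells, against 1600 and 1800 with GS alone (log2 change -1.83, SE 0.26, adjusted p = 8.32e-05). Both values lay below all 6 HT-1080 controls. Its other probe set fell less, by 0.68 (adjusted p = 0.0409 over all probe sets). P4HA1 was 341 and 344 against 776 and 712 (log2 change -1.13, SE 0.19, adjusted p = 0.00028). EGLN1 was 272 and 387 against 583 and 609 (log2 change -0.99, SE 0.28, adjusted p = 0.0133). NDRG1 was 865 and 1010 against 2760 and 2570 (log2 change -1.87, SE 0.60, adjusted p = 0.0271). None of these groups overlapped, which says little with 2 arrays on each side. The share of all tested genes without overlap was not counted.

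The starved cultures without a compound did not include floating cells, so the inhibitor and the floating cells come together on these 2 arrays. Another array under GS with Rot, without floating cells, had 676 for BNIP3L, 451 for P4HA1, 274 for EGLN1 and 1250 for NDRG1, each below both arrays with GS alone. The labels do not say whether the 2 samples with GS and Rot came from separate cultures, so this array may not be independent. With that array in place of its counterpart, EGLN1, BNIP3L and P4HA1 passed again and NDRG1 did not. NDRG1 was lost in each of the 6 fits that left out 1 array (adjusted p 0.0705 to 0.113), with no intensity trend (0.061) and without the block (0.0822). EGLN1 was lost without GS+Rot_S (log2 change -0.74, adjusted p = 0.132) and without GS replicate 2 (-1.26, adjusted p = 0.152). KDM3A was 439 and 385 against 539 and 600 and missed the threshold (log2 change -0.59, adjusted p = 0.139), which it passed with the deposited scaling (-0.97, adjusted p = 0.0163) and with HT-1080 arrays alone (0.0258). BNIP3 was 2550 and 2610 against 3060 and 2780 (log2 change -0.20, 95% interval -0.73 to 0.33).

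With TM, limma called 0 of 9 members, with 2 at an unadjusted p under 0.05, where 0.742% of tested genes were called. Those 2 were EGLN1 and BNIP3. EGLN1 was 374 with Rot and 317 with AA against 593 with TM alone and 694 in the shared control (log2 change -0.78, SE 0.31, adjusted p = 0.262). Both EGLN1 values lay below all 6 HT-1080 controls, but the share of all tested genes that did so was not counted. BNIP3 was 1450 and 1400 against 2360 (log2 change -0.73, SE 0.28, adjusted p = 0.244). P4HA1 was 478 and 465 against 609, and BNIP3L 1110 and 1320 against 1540. TM with a compound had a trimmed mean of 118 to 119 before scaling, beside 125 for TM alone.

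**Figure D3:**
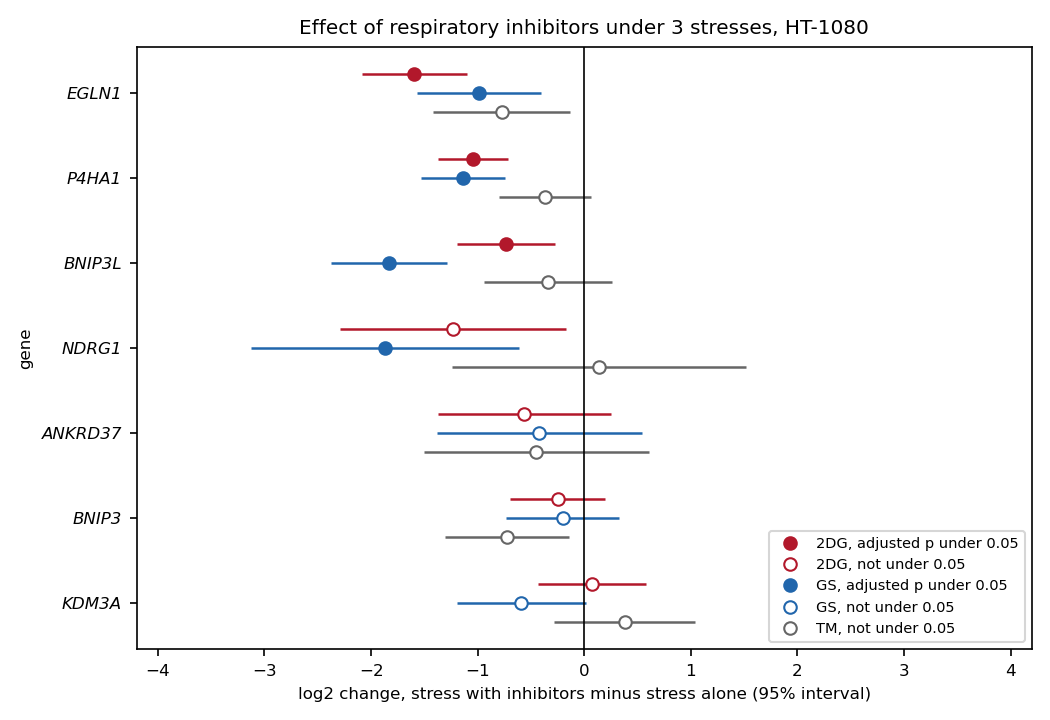
Log2 change of 7 members between stress with respiratory inhibitors and stress alone in HT-1080 (points), with 95% intervals (lines), for 2DG (red), GS (blue) and TM (grey); filled points have an adjusted p under 0.05. EGLN1 lies at -1.60, -0.99 and -0.78 and KDM3A at 0.07, -0.59 and 0.38.

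Whether the inhibitor effect under 2DG differed from that under TM was tested as well, and limma called 0 of 9 members, with 2 at an unadjusted p under 0.05, where 5.12% of tested genes were called. The difference was -0.82 for EGLN1 (95% interval -1.63 to -0.01, adjusted p = 0.218) and -0.68 for P4HA1 (-1.22 to -0.13, adjusted p = 0.129, and 0.0265 with the deposited scaling). The 2 intervals are wide, since a single TM array stands behind each.

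**Figure D4:**
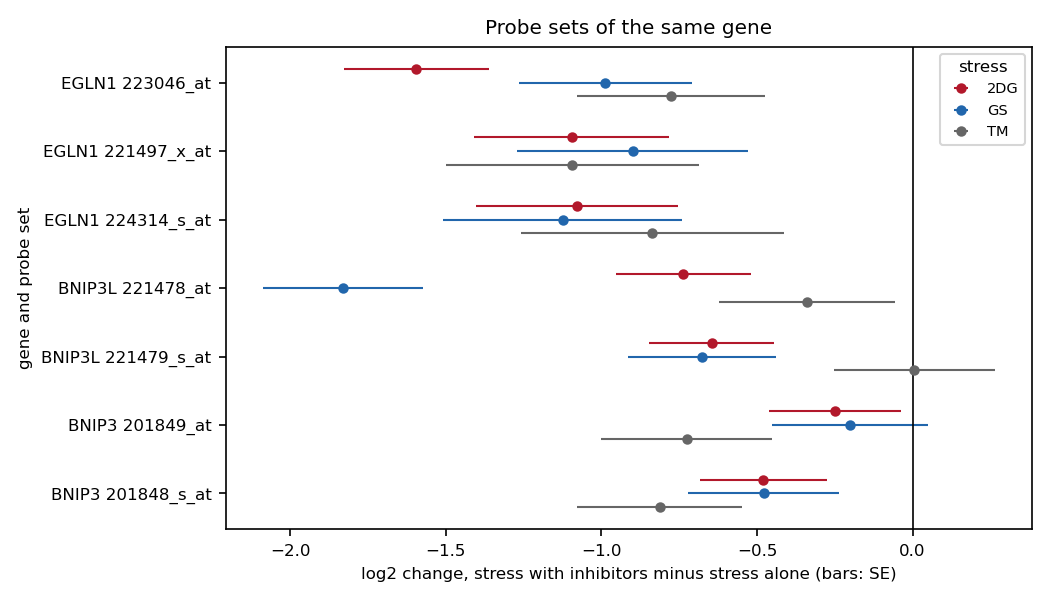
Log2 change between stress with inhibitors and stress alone (points, bars are SE) for each probe set past the filter of EGLN1, BNIP3L and BNIP3, under 2DG, GS and TM. The 3 EGLN1 probe sets lie between -0.78 and -1.60 in all 3 stresses, whereas the 2 BNIP3L probe sets differ under GS, at -1.83 and -0.68.

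Compounds of different structure were compared under 2DG, at doses that differ: the 3 biguanides, which share a biguanide group, against Rot and AA, which do not have it. limma called 0 of 9 members, with 1 at an unadjusted p under 0.05, where 0.0175% of tested genes were called. Set against their own controls, the biguanides put EGLN1 at -2.57, -1.79 and -2.20, Rot at -1.17 and AA at -1.74. The fitted difference was -0.66 (95% interval -1.45 to 0.12). For BNIP3L the biguanides were at -1.13, -0.58 and -0.89, Rot at -0.22 and AA at 0.02, and the difference was -0.73 (95% interval -1.44 to -0.03, adjusted p = 0.688). For P4HA1 it was -0.43 (95% interval -0.96 to 0.09), and for NDRG1 -0.64 (-2.45 to 1.18). The biguanide arrays share control 3, which had the highest signals of ADM, ANKRD37, EGLN1, NDRG1, BNIP3, BNIP3L, P4HA1 and KDM3A among the 6 HT-1080 controls, while Rot and AA share control 4.

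The other pathway genes moved both ways with the inhibitors. Under 2DG 16 of 63 rose and 17 fell, under GS 8 rose and 16 fell, and under TM 0 rose and 2 fell. Over all tested genes 12.9% rose and 22.1% fell under 2DG, 12.1% and 14.6% under GS, and 0.192% and 0.55% under TM. Under 2DG, DDIT4 fell by 3.14, VEGFA by 2.26 and HILPDA, a lipid droplet protein, by 2.67, while CITED2, which competes with HIF for its coactivators, rose by 3.02. The histone demethylase KDM4B fell by 1.95 and the circadian repressor BHLHE40 rose by 2.20. In the glycolysis list 7 of 19 rose and 1 fell under 2DG, and 4 rose and 4 fell under GS. Under GS the changes were -4.29 for HMOX1, -3.80 for DDIT4, -1.73 for LOX, -2.16 for MXI1, a MYC antagonist, and 1.56 for EDN1, the vasoconstrictor endothelin. Under TM the transcription factor ZNF395 fell by 1.35 and the adenylate kinase AK4 by 1.04. Of the 11 genes of the HIF machinery, 4 rose and 3 fell under 2DG with inhibitors. Beside CITED2, HIF1A rose by 0.57 and the elongin subunits ELOB and ELOC, which join VHL in its ligase, by 0.74 and 0.69, while VHL fell by 1.05, the asparaginyl hydroxylase HIF1AN by 0.72 and the coactivator EP300 by 0.69. Under GS 2 rose and 2 fell, with ELOB at 0.56, ELOC at 0.86, HIF1AN at -0.67 and EPAS1 at -0.70. ASNS, the asparagine synthetase that amino acid stress induces, fell by 2.52 under 2DG and by 3.67 under GS.

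Cells without mtDNA were given the same stresses, which asks whether the stress response depends on the respiratory chain. With 2DG, P4HA1 in HT-1080 rho0 cells was 470 against 579 in its control, 0.30 lower on the log2 scale, where parental cells had changes of 0.48, 0.95 and 0.89. The difference passed (log2 -1.01, SE 0.27, adjusted p = 0.0324), the only 1 of 9 members called, where 6.25% of tested genes were (4.57% lower). It was lost with no intensity trend (adjusted p = 0.0509), without a replicate block (0.0558), that is with all controls of a line pooled, and without 2DG replicate 2 or 3 (adjusted p = 0.0814 and 0.0773) or their controls. EGLN1 was 358 against 631 in the rho0 control (log2 change from own control -0.81), and its difference from parental cells was -0.57 (95% interval -1.42 to 0.28).

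With GS, in a sample including floating cells, rho0 HT-1080 had 361 for EGLN1 against 777, 571 for P4HA1 against 607 and 514 for BNIP3L against 580. limma called 0 of 9 differences from the parental response, with 3 at an unadjusted p under 0.05, where 1.71% of tested genes were called. Those 3 were EGLN1 (-1.09, adjusted p = 0.185), BNIP3L (-1.04, adjusted p = 0.174) and P4HA1 (-1.02, adjusted p = 0.0751, and 0.0197 with the deposited scaling). With TM rho0 cells had 772 for EGLN1 against 777, 877 for P4HA1 against 607 and 1110 for BNIP3L against 580. limma called 0 of 9 members there, with 0 at an unadjusted p under 0.05, and 0% of tested genes. Starved HT-29 rho0 cells had lower signals than their control for ADM (80.7 against 147), NDRG1 (122 against 174) and BNIP3L (201 against 292), where the parental line had higher ones. Again limma called 0 of 9, with 3 at an unadjusted p under 0.05 and 1.52% of tested genes called. NDRG1 differed by -2.76 (adjusted p = 0.104, and 0.000524 without HT-29 GS replicate 3). That replicate is the one the labels match to the rho0 array, since both had 14 h, so the comparison over 3 replicates mixes exposure times. Between these 2 arrays alone, which allow no test, the change from the own control was 0.14 in parental and -0.49 in rho0 cells for NDRG1, 0.78 and -0.83 for ADM, and 0.24 and -0.53 for BNIP3L. The labels describe the rho0 line as heavily damaged by the longer exposure.

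Among other pathway genes, 7 of 63 had a higher and 1 a lower 2DG response in rho0 than in parental HT-1080 cells, where 1.68% and 4.57% of all tested genes did. HIF1A was higher by 1.16 and CITED2 by 3.54, and VEGFA was lower by 2.32. With GS 0 were higher and 1 was lower in HT-1080, HMOX1 (-5.21), where 0.759% and 0.951% of all genes were. In HT-29 0 were higher and 1 was lower, VEGFA (-2.32), where 0.524% and 0.995% were. The share of higher among called genes went with the deposited scaling from 26.8% to 8.81% for 2DG, from 44.4% to 9.77% for GS in HT-1080 and from 34.5% to 12.9% in HT-29.

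VST was added on 1 array in each of 3 settings, so these changes have no replicate of their own and the array is assumed to vary like the other groups. EGLN1 fell in all 3 settings. It was 310 with 2DG and VST against 618 to 656 (log2 change -1.31, SE 0.26, adjusted p = 0.0158). It was 280 with GS and VST in HT-1080 against 583 and 609 (-0.95, SE 0.21, adjusted p = 0.0149), and 169 in HT-29 against 411 to 466 (-1.46, SE 0.20, adjusted p = 0.000485). With 2DG this was the only 1 of 9 members called, where 7.48% of tested genes were (5.26% lower).

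With GS in HT-1080, 3 of 9 members fell, where 9.47% of tested genes did (14.2% in either direction). P4HA1 was 313 against 776 and 712 (log2 change -1.21, SE 0.24, adjusted p = 0.00941) and BNIP3L 711 against 1600 and 1800 (-1.13, SE 0.28, adjusted p = 0.0231), with -0.77 from its other probe set (adjusted p = 0.128 over all probe sets). With GS in HT-29, EGLN1, ANKRD37 and BNIP3L fell among the 9 members, where 18.1% of tested genes did (29.5% in either direction). ANKRD37 was 46.2 against 184, 346 and 112 (log2 change -1.86, SE 0.38, adjusted p = 0.00427), just under the control range of 46.4 to 64.6. BNIP3L was 124 against 349, 281 and 185 (-1.13, SE 0.27, adjusted p = 0.00962), but its other probe set gave -0.47 (adjusted p = 0.276 over all probe sets). EGLN3, which limma also called, was 2.28 against 29.1, 33.2 and 45.5, all signals at or below the filter level. It passed the filter only through 2 HT-29 arrays without VST, a control and a GS array. Its call is therefore no support, and neither its p-value nor the size of its fall is given. With no filter another EGLN3 probe set represents the gene, and the change was -0.73 (adjusted p = 0.456).

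The VST calls rest on few arrays. When a gene's probe sets were averaged, EGLN1 with 2DG was at an adjusted p of 0.0848, and it missed the threshold without 2DG replicate 1 or 2 or their controls. The other EGLN1 probe sets were at -0.50 and -1.23 there (adjusted p = 0.409 and 0.167 over all probe sets), and in starved HT-29 at -0.88 and -0.57 (0.0316 and 0.326). In starved HT-1080, EGLN1 and P4HA1 were lost without GS replicate 1 (adjusted p = 0.315 and 0.24) and BNIP3L without any of the 4 arrays, with no intensity trend (0.0641) and with the mean of probe sets (0.0564). In starved HT-29, BNIP3L was lost without GS replicate 1 (adjusted p = 0.172), when its change was -0.50. BNIP3L was also lost with quantile normalization, the mean of probe sets and HT-29 arrays alone (adjusted p = 0.0567, 0.0559 and 0.0951). With the deposited scaling the share of higher among called genes went from 29.6% to 6.07% with 2DG, from 33.2% to 3.17% with GS in HT-1080 and from 38.8% to 6.42% in HT-29, and the median of all genes was -0.41, -0.43 and -0.45. Of the 63 other pathway genes, 1, 6 and 10 rose and 5, 11 and 15 fell, where 2.22%, 4.7% and 11.5% of all tested genes rose and 5.26%, 9.47% and 18.1% fell. VEGFA changed by -1.87, -1.94 and -2.84 in the 3 settings, and HILPDA by -2.33, -1.96 and -1.88.

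Each treated array was also described on its own. The median of the 9 members against the own control was 0.22 to 0.65 on the 3 arrays with 2DG, 0.94 and 0.44 with GS, and 0.52, 0.57 and 0.14 with GS in HT-29. Under 2DG it was -0.62 with Met, -0.48 with Bu, -0.45 with Phen, -0.02 with Rot and 0.32 with AA. With inhibitors under GS it was -0.08, -0.30 and -0.29. These medians count ADM and EGLN3, which were near background in HT-1080, and BNIP3, which was near background in HT-29. The medians with Phen and with GS+Rot are the EGLN3 values themselves. With AA under 2DG, ADM was at 0.95 and EGLN3 at 1.16. Medians without these genes were not computed. KDM3A was above its own control on all 26 arrays, by 0.07 to 1.76. EGLN1 was above it on 4 of 26, by 0.20 at most. The genes outside the list whose change was most like the members' median over the 26 treated arrays were HS1BP3 (Pearson r = 0.836), ARFGEF2 (0.815), HOXB9 (0.807), PLEKHA8 (0.802) and HEY1 (0.794). These are descriptions over arrays that share controls, and the median behind them counts the same genes near background. For EGLN3 they were DEGS1 (0.741), BTN3A2 (0.732), MAP3K3 (0.728), FGFR2 (0.718) and FAM83H (0.694), and the EGLN3 signal was at background on most of these arrays.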

How the data were processed

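The authors deposited linear signal intensities per probe set from Affymetrix U133 Plus 2.0 arrays, made with MAS5 per the submitters' processing notes. Of 54675 probe sets, 232 with a missing value were left out. The platform annotation gave a single gene symbol to 41097 probe sets, which were used, several to 1801 and no symbol to 11777. A scale factor per array brought its 2% trimmed mean to 114. Values were log2 of signal plus 5% of that mean. Probe sets needed a signal of 45.5 (40% of it) on at least 2 arrays, which left 21474, and the one with the highest mean stood for its gene (11456 genes). limma 3.58.1 in R 4.3.3 was fitted with an intensity trend and Benjamini-Hochberg adjustment over all genes. The control array named for each treated array was a block. Groups with 1 array borrow the spread of the others. Group fits had 5 residual degrees of freedom, fits by compound class 11 and control fits 8. Named genes were all members, the 6 other pathway genes with the largest called change in a comparison, genes of the HIF machinery and stress checks. The members and lists were chosen with earlier results of these data known. The fits were tested on simulated data. Alternatives covered the offset, filter, scaling, probe set choice, trend, block, samples in the fit and each left-out array. Promoters came from RefSeq, GRCh38.p14.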

Additional observations from a re-analysis of the deposited data

Results flagged for a closer look

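The response of P4HA1, the collagen hydroxylase subunit, to 2DG passed a test of the difference between rho0 and parental HT-1080 cells. The log2 difference was -1.01 (limma, adjusted p = 0.0324). The rho0 arm is 1 array, and the call was lost with no intensity trend (adjusted p = 0.0509), with no replicate block (0.0558) and without 2DG replicate 2 or 3 or their controls (0.0606 to 0.0814). P4HA1 was 470 on the single rho0 array with 2DG and 579 in its control, and parental cells had 669, 859 and 652 against 477, 440 and 350.

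The difference between rho0 and parental controls of BNIP3L, the mitophagy receptor, was not the same in the 2 lines. The log2 difference between them was 1.52 (limma, adjusted p = 0.0218), with BNIP3L lower in HT-1080 rho0 and higher on the 1 HT-29 rho0 array. The call was lost without either HT-1080 rho0 control (adjusted p = 0.0772 and 0.0602). Its other probe set gave 1.54 (adjusted p = 0.00752 over all probe sets).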

How the results depend on the processing

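No member reversed a called direction under any alternative. Apart from quantile normalization and the deposited scaling, the share of all tested genes called was not counted for the alternatives. Counts below for the other alternatives therefore describe the members only. Counts of members called that moved by more than 1.5 times, or to or from 0, were as follows. The other counts stayed within 1.5 times, such as 2 with the deposited scaling. VST with GS in HT-29 was at 6 against 4, with EGLN3, whose call is no support, counted in both. Over all genes, 231 were then called higher and 3366 lower, against 1312 and 2072. Inhibitors with GS were at 5 against 4, where 630 genes were called higher and 3468 lower, against 1383 and 1670. With the deposited scaling, inhibitors with 2DG went from 3 to 5, their difference from TM from 0 to 1, the rho0 response to GS in HT-1080 from 0 to 1, VST with 2DG from 1 to 2 and the HT-29 rho0 control from 1 to 0. Over all genes, higher and lower calls for inhibitors with 2DG were then 373 and 4657, against 1478 and 2533. They were 63 and 990 against 219 and 367 for the difference from TM. For the rho0 response to GS they were 42 and 388 against 87 and 109. For VST with 2DG they were 84 and 1300 against 254 and 603. For the HT-29 rho0 control they were 256 and 971 against 457 and 456. With quantile normalization, inhibitors with 2DG gave 5, where 1309 of all genes were called higher and 1968 lower. With the mean of probe sets, VST with 2DG gave 0. With no intensity trend, GS gave 1 in HT-1080 and 2 in HT-29 and the rho0 response to 2DG gave 0. With arrays of the same line only, 2DG gave 5, GS 5 in HT-1080 and 3 in HT-29, inhibitors with TM 1, the rho0 response to GS 1, VST with 2DG 3 and VST with GS in HT-1080 5. The fit by compound class gave 2 for 2DG. Leaving out 1 array gave 0 to 1 for 2DG, 0 for GS in HT-1080, 1 to 5 for GS in HT-29, 0 to 2 for the difference between lines, 2 to 3 for inhibitors with GS, 0 to 1 for the rho0 responses to 2DG and, in HT-29, to GS. It gave 0 to 1 for VST with 2DG, 0 to 2 for VST with GS in HT-1080, 1 to 2 for rho0 controls of either line, 1 to 4 for their mean and 0 to 1 for their difference. The replicate numbers in the labels do not pair HT-1080 arrays, so the own control served as the replicate block; without it the counts were 1 for 2DG, 2 for GS, 4 for GS in HT-29, 3 for inhibitors with 2DG, 3 for inhibitors with GS and 0 for the rho0 response to 2DG. Signals near background limit ADM and EGLN3 in HT-1080 and BNIP3 in HT-29.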
